A study of Mus musculus with 6 samples.

Results

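The Hox genes encode homeodomain transcription factors that lie in 4 clusters in the mouse genome, and here they were read in stromal cells grown from the jaw. They were taken as every protein-coding row of the count table with a symbol made of Hox, a cluster letter from a to d and a paralogue number, which gave 40 of the 54532 rows. Hoxd4 has 2 rows, both at 0, so the 40 rows stand for 39 genes, of which 38 are described. The 6 RNA-seq libraries came from mesenchymal stromal cells (MSCs, which grow attached to the dish and can turn into bone-forming cells) of mouse alveolar bone, the part of the jaw that carries the tooth sockets. Of these, 3 were from wild-type (WT) mice and 3 from Ccrl2-KO mice (KO), which lack an atypical chemokine receptor. Per the submitters, the cells of both groups were under TNFα-induced inflammation and in osteogenic induction. Column names of the count table include Ctrl, a word absent from the sample labels and of unknown meaning here. The age, strain and sex of the mice, the way the knockout was made, the number of mice and the passage of the cells are not stated in the labels. The replicates are called biological. If several came from 1 mouse, the p-values speak only of the spread from culture to culture.

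Along each cluster, low paralogue numbers are used towards the head and high numbers towards the tail and the limb tips, and a neighbouring group of factors, the TALE proteins Pbx, Meis and Pknox, binds DNA together with Hox proteins. The neural crest cells that build the upper and lower jaw enter the first pharyngeal arch without Hox expression, whereas the crest of the second arch carries Hoxa2, and mice without Hoxa2 form a second set of jaw-like elements there. Bones of the trunk and limbs keep Hox expression into adult stromal cells. Polycomb proteins hold silent Hox clusters shut, and trithorax proteins keep active ones open.

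The clusters also hold microRNAs, and the mature forms of the miR-10 and miR-196 families are shown because they are encoded within the Hox clusters. miR-196b lies inside the Hoxa9 row, miR-10b inside the Hoxd3 and Hoxd4 rows and the HoxC copy of miR-196a inside the Hoxc5 row. The capitals mark the seed (bases 2 to 8), which the 2 members of the miR-10 family share and which the 2 members of the miR-196 family share.
mmu-miR-10a-5p: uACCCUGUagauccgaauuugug
mmu-miR-10b-5p: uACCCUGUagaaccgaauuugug
mmu-miR-196a-5p: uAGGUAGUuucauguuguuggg
mmu-miR-196b-5p: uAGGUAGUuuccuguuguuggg
The sequences are RefSeq's (GRCm38.p6). The mature miR-10a lies on chromosome 11 (chr11:96317186-96317208, plus strand) in the HoxB cluster and miR-10b on chromosome 2 (chr2:74726074-74726096, plus strand) in HoxD. miR-196a is encoded in both HoxB (chr11:96265187-96265208, plus strand) and HoxC (chr15:102973365-102973386, plus strand), and miR-196b in HoxA (chr6:52230129-52230150, minus strand). All 7 miRNA rows within the clusters and 5 kb on each side had 0 counts in each library. Libraries of long RNA do not measure mature microRNAs, so these zeros speak of the hairpin rows alone.

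Library totals ran from 16114974 to 18616433 counts. A count of 0 allows up to 3 counts, which here equal 0.161 to 0.186 CPM (the usual counts-per-million unit, always by library total here). This limit and the Poisson intervals below cover counting error only, not the spread between libraries, and reads without molecular identifiers are not independent molecules. The targeted gene Ccrl2 was read 4, 3 and 0 times in WT replicates 1 to 3 and not once in KO, so it gives little check of the labels. All 12 MSC markers were detected, among them Prrx1, Pdgfra and Thy1. The epithelial genes Epcam, Krt5 and Krt8 and the muscle gene Myod1 had 0 counts throughout, but other genes of these lists were read. Of 7 epithelial markers 2 were detected (Trp63 with 6 to 42 counts and Cdh1 with 1 to 9). Of 6 muscle markers 2 were (Acta1 with 45 to 132 and Des with 19 to 58). Detected too were 1 of 6 endothelial and 4 of 6 neural markers. The 12 macrophage markers were detected too, with a summed level of 354 to 407 CPM in WT and 96.3 to 103 in KO. KO replicate 2 stood apart. It lay at 66.6 on the first principal component (52.1% of the variance) against -31.2 to 7.76 for the others, and 93 protein-coding genes had exactly 1 count there, against 383 to 520 in the other libraries.

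Most Hox genes were not seen in these cells. A gene was called detected when it had over 3 counts in at least 3 of the 6 libraries, trace when it had fewer counts than that, and absent when it had 0 counts in all 6. By this rule 2 of the 38 Hox genes described (Hoxc13 and Hoxd8) were detected, 11 were trace and 25 were absent. Together they took 137 of 103001689 counts, and Hoxc13 and Hoxd8 held 51.8% of these. The absent genes were Hoxa4, Hoxa5, Hoxa6, Hoxa11 and Hoxa13 in HoxA, Hoxb1, Hoxb2, Hoxb5, Hoxb6, Hoxb7, Hoxb8 and Hoxb13 in HoxB, Hoxc4, Hoxc5, Hoxc8, Hoxc9, Hoxc10, Hoxc11 and Hoxc12 in HoxC, and Hoxd1, Hoxd3, Hoxd4, Hoxd11, Hoxd12 and Hoxd13 in HoxD. They include Hoxa11 and Hoxd11, which pattern the forearm, and Hoxa13 and Hoxd13, which pattern the digits. For each absent gene the 6 libraries together allow a level of up to 0.0291 CPM. Of all 22046 protein-coding rows, 60.2% were detected and 28.2% absent. Of 189 other protein-coding rows that the table places in the homeobox family, 57 (30.2%) were detected and 97 (51.3%) were absent, against 5.26% and 65.8% of the 38 Hox genes.

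**Figure D1:**
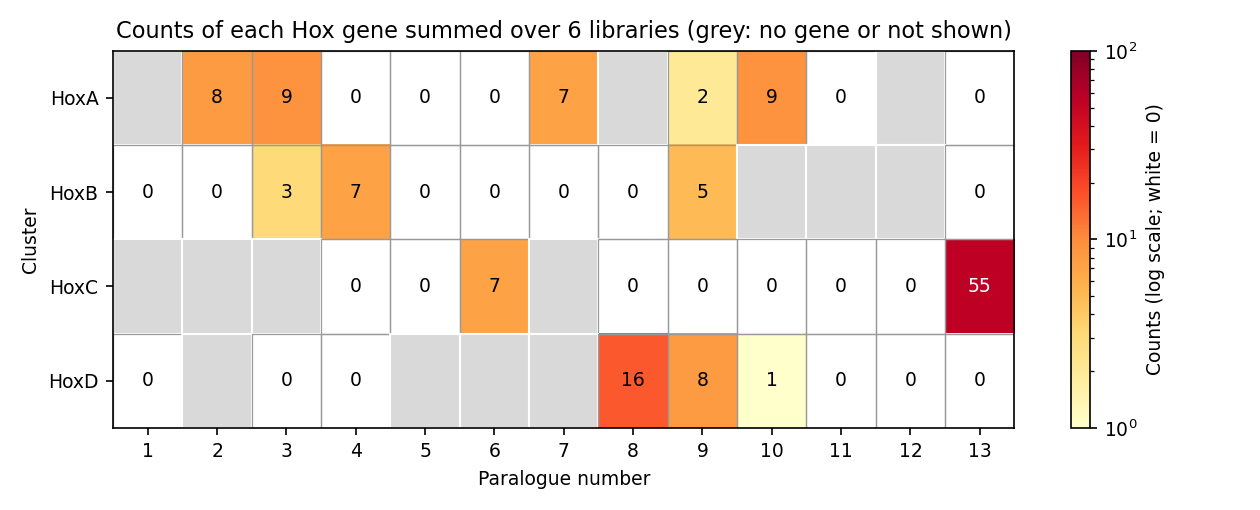
Counts of each Hox gene summed over the 6 libraries, by cluster (vertical axis) and paralogue number (horizontal axis). Colour follows the printed count on a log scale, white cells are genes at 0 and grey cells have no gene or are not shown. Hoxc13 (55) stands out, and the other genes shown have 16 counts or fewer.

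The clusters differed in how many members had any count. Positions are GRCm38. In HoxA (chromosome 6, 52162417 to 52260880 from Hoxa2 to Hoxa13), 5 of the 10 genes described had counts, 35 in all, and none was detected by the rule above. In HoxB (chromosome 11, 96194316 to 96368256) 3 of 10 did, with 15 counts, and again none was detected. In HoxC (chromosome 15, 102921103 to 103036852) 2 of 9 did, with 62 counts, and in HoxD (chromosome 2, 74668310 to 74765142) 3 of 9 did, with 25 counts. By paralogue number, 3 of the 7 genes described of groups 1 to 3 had counts, 4 of the 15 of groups 4 to 8 and 6 of the 16 of groups 9 to 13. Groups 5, 11 and 12 had no count in any library. Hoxc13 is the last number of its cluster and Hoxd8 lies mid cluster, and genes with counts stood beside genes at 0 within each cluster.

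Hoxc13, known for its part in hair, nails and the papillae of the tongue, had counts in each library. Hoxc13 (ENSMUSG00000001655, chromosome 15, 102921103 to 102928814, plus strand) had 13, 13 and 7 counts in WT and 10, 6 and 6 in KO. WT replicates 1 and 2 were highest, and WT replicate 3 lay within the KO range. The level was 0.648 ± 0.230 CPM in WT and 0.432 ± 0.151 CPM in KO (SD, n = 3 each). The exact 95% Poisson interval of the pooled counts was 0.440 to 0.898 CPM in WT and 0.268 to 0.648 CPM in KO. Its log2 fold change of -0.60 ± 0.60 (SE; 95% interval -1.94 to 0.74) did not pass (adjusted p = 0.657, edgeR quasi-likelihood test, Benjamini-Hochberg over all 13705 tested genes). None of the exon bases of Hoxc13 are shared with another gene. Its neighbours Hoxc12, Hoxc11, Hoxc10, Hoxc9 and Hoxc8 had 0 counts in all 6 libraries, as had the non-coding RNA Hotair, which lies between Hoxc12 and Hoxc11.

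Hoxd8, a gene of the mid trunk, followed with 1, 5 and 5 counts in WT and 0, 5 and 0 in KO. Only 3 libraries were above 3 counts, and Hoxd8 fell below the rule for detection without WT replicate 2, WT replicate 3 or KO replicate 2. The pooled counts gave 0.213 CPM in WT (exact Poisson interval 0.106 to 0.381) and 0.0973 CPM in KO (0.0316 to 0.227). It was too low for the test. Its cluster neighbour Hoxd9 had 6 counts in WT replicate 3 and 2 in KO replicate 3, with 0 in the other 4 libraries. Hoxd10 had a single count, in KO replicate 1.

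**Figure D2:**
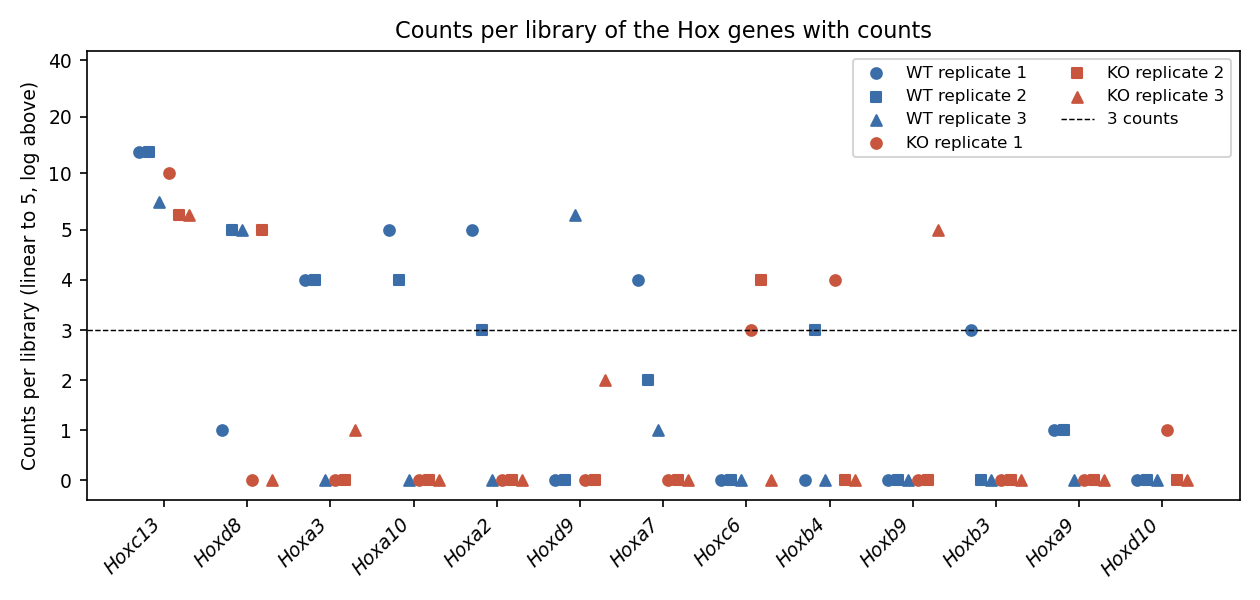
Counts per library (vertical axis, linear up to 5 and logarithmic above) of the 13 Hox genes described that had any count, ordered by total. Each point is 1 library, blue for WT and red for KO, and the dashed line marks 3 counts. Hoxc13 lies above the line in all 6 libraries, and the other 12 genes have 6 counts or fewer in each.

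The counts of the HoxA genes from Hoxa2 to Hoxa13 came almost wholly from 2 WT libraries. Hoxa2, the gene of the second arch, was read 5 times in WT replicate 1, 3 times in WT replicate 2 and not elsewhere. Hoxa10 had 5 and 4 in the same libraries and 0 elsewhere. A count of 0 in a library allows up to 3 counts. For both genes WT replicate 3 was at 0 like the KO libraries, so the groups overlapped. Neither gene was called without the filter (adjusted p = 0.402 for Hoxa2 and 0.369 for Hoxa10, edgeR). Hoxa3, which acts in the third arch and in the thymus, had 4 in each of WT replicates 1 and 2 and 1 in KO replicate 3. Hoxa7 had 4, 2 and 1 in WT replicates 1 to 3, and Hoxa9, a gene of blood progenitors, 1 and 1 in WT replicates 1 and 2. Over the 10 genes from Hoxa2 to Hoxa13 this made 19, 14 and 1 counts in WT replicates 1 to 3 and 0, 0 and 1 in KO replicates 1 to 3. WT replicate 3 lay with the KO libraries, so the groups overlapped at 1 count. The pooled level was 34 counts in WT (exact Poisson interval 0.456 to 0.920 CPM) and 1 count in KO (0.000493 to 0.108 CPM). Pooling leaves out the spread between the WT libraries (19, 14 and 1 counts), so these intervals do not compare the genotypes. The HoxA counts were too low for the test, and none of these 10 genes was tested after the filter on low counts.

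Summed levels of macrophage and blood cell markers were lower in the KO cultures. The summed level of the macrophage list was 354, 388 and 407 CPM in WT replicates 1 to 3 and 98.3, 103 and 96.3 CPM in KO. That of the general leukocyte list was 58.0, 61.4 and 56.7 CPM in WT and 16.6, 9.24 and 12.3 CPM in KO. That of the blood progenitor list was 36.2, 32.3 and 27.95 CPM in WT and 13.5, 12.7 and 14.7 CPM in KO. WT replicate 3, with 1 of these HoxA counts, had the highest macrophage sum and the lowest leukocyte and progenitor sums of the WT libraries. Of the 11 macrophage markers tested, 9 were called lower in KO, and of the 7 general leukocyte markers 6 were, against 2.31% of all tested genes. Among markers of blood progenitors, Flt3 had 0 counts, Kit 0 to 3 and Myb 0 to 5 per library, while Gata2 and Spi1 were called lower in KO. Most of the progenitor sum came from Gata2 (mean 17.6 CPM in WT and 5.94 in KO) and Cd34 (10.7 and 6.69). Cd34 was not called (adjusted p = 0.134, edgeR). KO replicate 2, with the fewest genes at 1 count, had 0 of these HoxA counts, as had KO replicate 1. The part of macrophages, of blood cells and of library make-up in the HoxA counts was not tested. In these bulk libraries fewer cells of a type and less RNA per cell cannot be told apart.

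Trace counts in the other clusters were scattered over both genotypes. Hoxb4, known for the growth of blood stem cells, had 3 counts in WT replicate 2 and 4 in KO replicate 1. Hoxb3 had 3 counts in WT replicate 1 and Hoxb9 had 5 in KO replicate 3. Hoxc6 had 3 and 4 counts in KO replicates 1 and 2 and 0 in WT. Of the 13 genes described with counts, 3 had them in a single library and 1, Hoxc13, in all 6.

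The sum over the 38 Hox genes described overlapped between the groups. It was 2.08, 2.17 and 1.04 CPM in WT replicates 1 to 3 (mean 1.77 ± 0.629, SD) and 1.09, 0.924 and 0.752 CPM in KO (0.922 ± 0.168, n = 3 each). WT replicates 1 and 2 lay above all KO libraries, and WT replicate 3 lay below KO replicate 1. The pooled counts gave 90 in WT (exact Poisson interval 1.40 to 2.14 CPM) and 47 in KO (0.672 to 1.22 CPM). Here, too, the intervals leave out the spread between libraries and do not compare the genotypes. Genes from Hoxa2 to Hoxa13 made up 19 of the 36 counts in WT replicate 1 and 1 of the 19 in WT replicate 3. The sums of HoxB, HoxC and HoxD overlapped between the groups. No p is given for these sums, as the members were chosen with results of these data known.

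Of the 38 Hox genes described, 1 (Hoxc13) had enough counts for the genotype test, and 0 were called. Over all 13705 genes tested, 366 were called (2.67%), 50 higher (0.365%) and 316 lower (2.31%) in KO. Against that background, 0 of 1 says little about the members. The number called over all genes became 158, 147 or 211 when WT replicate 1, 2 or 3 was removed, 610 on removal of KO replicate 2 and 182 on removal of KO replicate 3. Hoxc13 did not have an unadjusted p under 0.05 in edgeR, nor was it called by DESeq2 or limma-voom. With no filter on low counts, 13 of the Hox genes described entered the test, 0 were called and 1, Hoxa10, had an unadjusted p under 0.05 (adjusted p = 0.369, edgeR). The interval of Hoxc13 was too wide to say that it was equal between genotypes.

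The genes that flank the clusters were read well, apart from Evx1 and Evx2, Hox-related genes next to HoxA and HoxD, which had 0 counts, and the nearest genes of HoxB. Skap2, 149.9 kb from Hoxa2, had 300 to 504 counts per library. Mtx2, 60.7 kb from the Hoxd1 end of HoxD, had 424 to 688. Each was read in all 6 libraries. Calcoco1 and Smug1, the neighbours of HoxC, had 429 to 686 and 150 to 255. Beside HoxB, Ttll6 had 0 to 3 counts and Skap1, a T cell adaptor, 2 to 16. Among the second neighbours, Hibadh beyond Evx1 had 602 to 793 counts, Lnpk beyond Evx2 352 to 670 and Snx11 beyond Skap1 402 to 582, whereas Calcoco2 beyond Ttll6 had 0. The second neighbours were looked at after the counts of the first were seen. Hoxc13 is the outermost gene of its cluster, on the side of Calcoco1, and per length it lay below it (0.219 against 6.15 CPM per kb, means of 6 libraries). None of the flanking genes that could be tested was called between genotypes. Over all tested genes 2.67% were called, so for so few genes this lies near the background.

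**Figure D3:**
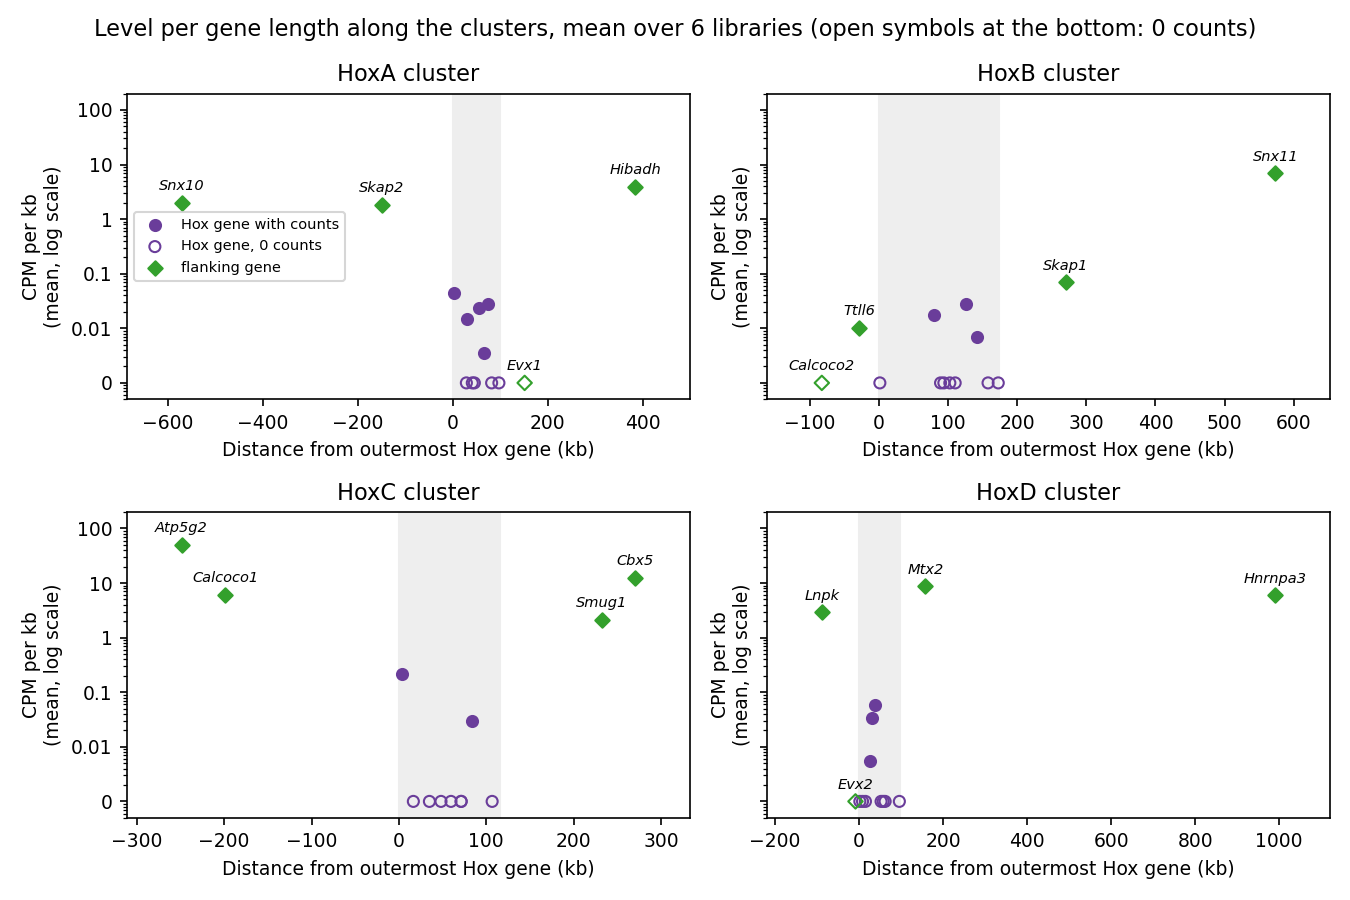
Level per gene length (CPM per kb, mean of 6 libraries, log axis) along the 4 clusters, with the distance in kb from the Hox gene shown of lowest coordinate on the horizontal axis. Purple circles are the Hox genes described, green diamonds the 2 nearest protein-coding genes on each side, open symbols genes at 0, and the grey band is the cluster. Hoxc13 (0.219) is the highest circle, at the left edge of HoxC.

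Within the clusters and 5 kb on each side lie 50 further rows, of which 8 had any count, 5 of them in or beside HoxA. Hotairm1, a non-coding RNA first described in human myeloid cells, had 16, 11 and 18 counts in WT and 14, 12 and 7 in KO. Its log2 fold change was -0.43 ± 0.53 (adjusted p = 0.719, edgeR). Gm15050, an antisense RNA within the span of Hoxa3, had counts in each library, 5, 6 and 9 in WT and 7, 3 and 7 in KO. Hoxaas2, antisense to Hoxa3, had 1, 4 and 4 in WT and 5, 11 and 0 in KO. The groups overlapped in all 3. The non-coding RNAs Hottip, Hoxa11os, Hoxaas3, Haglr and Hotair had 0 counts in all 6 libraries. How reads of overlapping genes were counted, and whether strand was kept, is not known, so reads of stretches that genes share cannot be told apart. Among the 25 absent rows found in GENCODE M21, 2 (Hoxd3 and Hoxd4) had over 50% of their exon bases in exons of another gene, 16 shared none, and each had at least 874 bases of its own. The second Hoxd4 row was not found there. In the count table the 2 Hoxd4 rows overlap (chromosome 2, 74711929 to 74729123 and 74721978 to 74729160, both plus strand). The bases of its own leave out this overlap, so the zeros of Hoxd4 may depend on how shared reads were counted.

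To show the start regions of a trace and an absent gene of 1 cluster, 2 windows of HoxA are given, Hoxa2 with counts in 2 WT libraries and Hoxa5 with 0 in all 6. Promoter activity itself was not measured. Each runs from 250 bases before to 50 after the start of the gene, is RefSeq's (GRCm38.p6, minus strand, chr6:52164782-52165081 for Hoxa2 and chr6:52204538-52204837 for Hoxa5), and has each CG dinucleotide in capitals.
Hoxa2: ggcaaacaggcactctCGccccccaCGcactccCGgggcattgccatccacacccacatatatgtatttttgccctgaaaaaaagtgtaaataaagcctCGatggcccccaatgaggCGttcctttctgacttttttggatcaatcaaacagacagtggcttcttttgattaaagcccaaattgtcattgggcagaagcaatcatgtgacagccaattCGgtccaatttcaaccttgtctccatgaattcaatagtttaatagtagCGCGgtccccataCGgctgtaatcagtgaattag
Hoxa5: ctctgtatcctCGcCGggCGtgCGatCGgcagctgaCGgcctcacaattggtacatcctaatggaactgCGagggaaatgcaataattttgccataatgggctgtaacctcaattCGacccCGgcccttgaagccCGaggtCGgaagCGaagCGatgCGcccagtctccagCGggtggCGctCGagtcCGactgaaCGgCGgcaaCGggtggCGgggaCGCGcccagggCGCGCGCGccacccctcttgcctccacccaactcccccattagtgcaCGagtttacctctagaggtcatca
The Hoxa2 window holds 9 CG and that of Hoxa5 29. Of 32851 windows of this length from all genes, 94.6% hold at least 1 CG (the same on both strands), 45.8% hold at least 9 and 12.9% at least 29. In all, 24 windows matched 22 of the Hox genes, with a median of 14.5 CG (range 4 to 45) against 7 over all windows. Windows of absent genes had a median of 17.5 (14 windows, 4 to 45) and those of genes with counts 13 (10 windows, 4 to 22). The ranges overlap, and the counts of CG say nothing of methylation, which was not measured.

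Factors that work with Hox proteins were present. All 8 TALE genes described were detected. Meis2, which is known in cranial neural crest, had 428, 395 and 437 counts in WT and 361, 433 and 407 in KO. Pbx2 had 435, 348 and 404 in WT and 366, 263 and 370 in KO. The groups overlapped for both. Neither passed the test (log2 fold change -0.08 ± 0.14, adjusted p = 0.809, for Meis2 and -0.27 ± 0.15, adjusted p = 0.450, for Pbx2, edgeR). None of the 8 was called (2.67% of all genes were), which is near the background for so few genes, and their median log2 fold change was -0.21 against 0.02 over all tested genes.

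Other positional genes showed where these cells do and do not carry regional transcripts. Of 31 factors of the jaw and cranial neural crest, 25 were detected, with Prrx1 at 14791 to 19689 counts, Barx1, a factor of molar-forming jaw mesenchyme, at 2657 to 4062, and Lhx8 at 892 to 1278. Otx2 had 0 counts, Hand2 0 to 1 and Pitx1 0 to 3. Per length, Barx1 stood at 137 CPM per kb (range 117 to 176 over 6 libraries), against a mean of 0.219 for Hoxc13. Of 17 factors of limb and trunk mesoderm, 10 were detected. Among the detected ones Shox2 had 226 to 451 counts per library, Tbx15 255 to 366, Foxc2 251 to 370 and En1 175 to 424. Tbx5, the forelimb factor, had 0 counts, as had Uncx and Tcf15, and Tbx4, the hindlimb factor, 0 to 8. Of 8 ParaHox, Evx, Gbx and Mnx genes 0 were detected, 7 were at 0 and Gbx1 had at most 8 counts in a library. The same list also held Mecom, a zinc-finger gene of another class, with 31 to 77 counts.

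Between genotypes, 4 of 24 tested jaw genes were called, all lower in KO (Msx1, Nr2f1, Pax9 and Lhx6), with a list median of 0.02. Of 9 tested limb and trunk genes, 4 were called lower (Meox2, En1, Tbx18 and Shox2), with a median of -0.79. Meox2, a factor of somites and limb muscle, had 202, 188 and 245 counts in WT and 40, 42 and 55 in KO. All WT libraries lay above all KO libraries. It fell by 2.22 on the log2 scale (-2.22 ± 0.20, adjusted p = 0.000277, edgeR). Nr2f1, a nuclear receptor of the cranial crest, had 576, 558 and 639 counts in WT and 263, 186 and 298 in KO, without overlap, and fell by 1.27 (-1.27 ± 0.15, adjusted p = 0.00148, edgeR). Both kept their call whichever library was removed. The other calls were each lost on removal of any of several libraries. Removal also leaves fewer libraries for the test, so these losses do not show which libraries a call rests on. Over all genes the number called also fell from 366. It was 158, 147 or 211 without WT replicate 1, 2 or 3 and 182 without KO replicate 3. Msx1, Pax9, Lhx6 and En1 did not pass once a WT library or KO replicate 3 was removed (adjusted p as high as 0.225), nor did Lhx6 with upper-quartile scaling. Shox2 was lost without WT replicate 1, WT replicate 2 or KO replicate 3 (adjusted p at most 0.0689). Tbx18 was lost without WT replicate 2, WT replicate 3, KO replicate 1 or KO replicate 3 (at most 0.128). Over all genes, too, more were called lower (2.31%) than higher (0.365%).

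**Figure D4:**
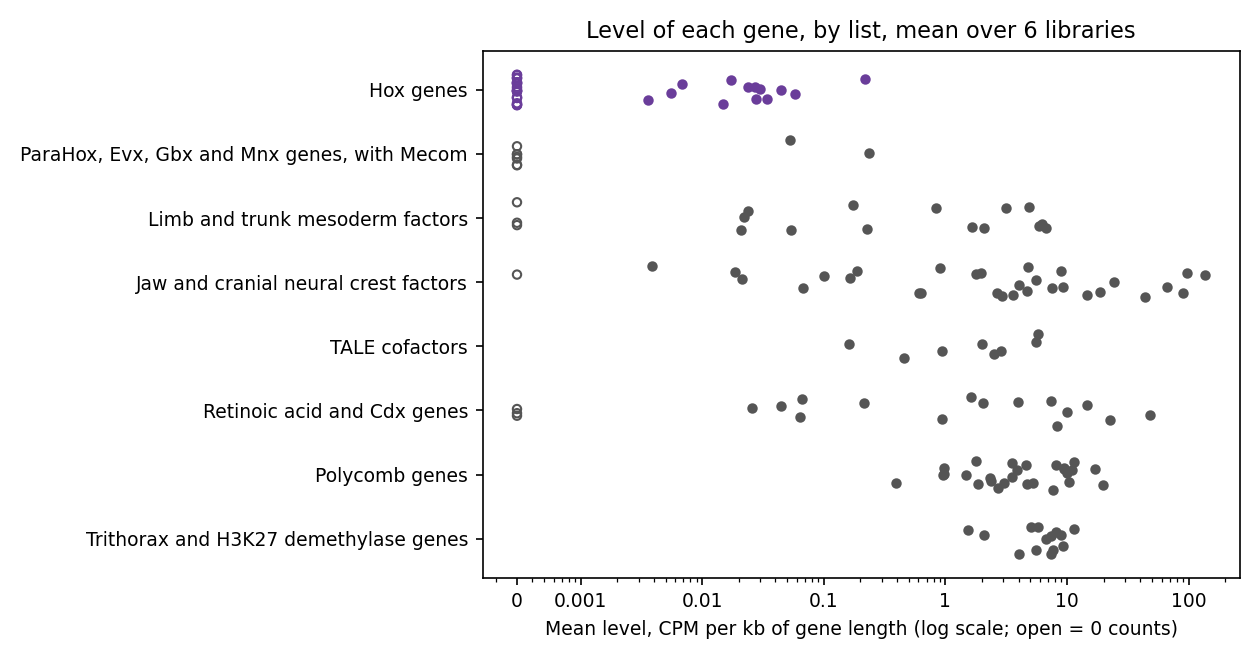
Level of each gene per length (CPM per kb, mean of 6 libraries, log axis) in the Hox genes and in 7 other lists. Each point is 1 gene, and open points at the left are genes at 0 counts. Of the 38 Hox genes shown 25 lie at 0, and the highest of them, Hoxc13 at 0.219, lies below most of the jaw, TALE, Polycomb and trithorax genes.

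The genes that set Hox activity in embryos were expressed, and no Polycomb or trithorax gene was called, at a background of 2.67% called over all genes, so that counts of 0 in lists of this size lie near it. All 27 Polycomb genes were detected, from Cbx7 with 25 to 53 counts to Phc2 with 1591 to 2727, and 0 of 27 were called. Ezh2, the H3K27 methyltransferase, had 206, 196 and 280 counts in WT and 255, 302 and 365 in KO. Per library total each KO library lay above each WT library, but Ezh2 did not pass the test (log2 fold change 0.42 ± 0.16, adjusted p = 0.271, edgeR). All 14 trithorax and H3K27 demethylase genes were detected and 0 were called. Kmt2a, the methyltransferase that maintains Hox expression in blood, had 2148, 1669 and 1359 counts in WT and 1370, 1425 and 1855 in KO, which overlap. The median log2 fold changes were 0.03 for Polycomb and 0.01 for trithorax genes.

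Retinoic acid switches on the low-numbered Hox genes in embryos. Of 18 genes of retinoic acid handling and the Cdx factors, 12 were detected. Aldh1a1, which makes retinoic acid, had 3218 to 5049 counts per library and the receptor gene Rarg 1113 to 1974, while Cdx1, Cdx2 and Cdx4 had 0. Of 11 tested, Cyp26b1, which breaks retinoic acid down, was called, lower in KO (2.31% of all genes were called lower). It had 939, 754 and 839 counts in WT and 547, 385 and 601 in KO, without overlap (-0.75 ± 0.15 on the log2 scale, adjusted p = 0.0271, edgeR). Removing a WT library or KO replicate 3 ended this call (adjusted p as high as 0.182). The list median was -0.23.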

How the data were processed

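Groups follow the sample titles. Per the labels' protocols, RNA was isolated with TRIzol and NEBNext Ultra RNA libraries were built from it. The submitters' processing notes name HISAT2, StringTie, SAMtools and the mm9 build, without versions or roles, and no counting tool. The authors deposited whole-number counts per gene, not normalized, with a gene length in bases, used here for levels per kb. Coordinates of 37 of the 39 Hox rows described equal those of GENCODE M21, so positions are GRCm38. The other 2 are the Hoxd4 rows.

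KO was compared with WT by the quasi-likelihood test of edgeR 4.0.16 under R 4.3.3 (robust fit, TMM scaling, no covariate) after filterByExpr (minimum count 10, total 15). Benjamini-Hochberg adjustment ran over all 13705 tested genes, with a threshold of 0.05. On simulated counts the test recovered 61% of 2-fold and 98% of 4-fold changes, with 9 false calls among 168. The simulation gave all genes the same spread and had no library set apart as KO replicate 2 was, so these shares may not hold here. An exact permutation test of 3 against 3 libraries cannot go below p = 0.1. No library repeated another (chi-square per gene 4.37 to 57.3 within groups). Alternatives were DESeq2 1.42.0, limma-voom (limma 3.58.1), other scalings, filters and detection rules, the replicate block and each library left out. By rule, the text names each Hox gene described, called list members and the 2 to 4 of highest CPM, non-coding rows inside the clusters (5 kb added on each side) and the nearest flanking genes. Of the Hox genes 1, and of the lists a few members, are not reported here. Other list members were chosen for their role after their values were seen. The members and lists were chosen with earlier results of these data known. Among other marker lists, 0 of 1 endothelial, 0 of 1 epithelial, 0 of 2 muscle and 0 of 4 neural markers tested were called, and 1 of 12 MSC markers (Thy1, lower in KO). Over all tested genes 2.67% were called and 2.31% were called lower. Counts of 0 in lists this small lie near that background and say little about these cell types.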

Additional observations from a re-analysis of the deposited data

How the results depend on the processing

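The count of Hox genes called between genotypes was 0 with each alternative that tested any, including DESeq2, limma-voom, other scalings, the replicate block (1 tested, 0 called) and each library left out. With a minimum count of 20 no Hox gene described was left to test. Hoxc13 ranged from -0.92 to -0.41 in log2 fold change with single libraries left out and was -0.58 with the replicate block. The labels state no pairing. Correlations of same-numbered deviations were 0.137, -0.105 and -0.192, and those of other pairs ran from -0.188 to 0.263. With 3 libraries per group they cannot settle whether replicate numbers pair the libraries. The replicate block gave 331 called genes against 366 and 10 called list members against 9. Of the 2 genes detected, Hoxc13 alone (1 gene) met the rules of at least 10 counts, at least 0.5 CPM, or over 3 counts in all 6 libraries, and 4 genes met that of at least 1 count in at least 3 libraries (adding Hoxa3 and Hoxa7). The number was 1 to 2 with single libraries left out, since Hoxd8 was lost without WT replicate 2, WT replicate 3 or KO replicate 2. The summed Hox level was 0.656 in WT and 0.369 in KO in CPM per kb of gene length, by construction on another scale than CPM. With single libraries left out it was 1.56 to 2.13 CPM in WT and 0.838 to 1.01 CPM in KO. Over all genes, 883 were called without the filter, 656 with DESeq2 and 147 to 610 with single libraries left out. Called list members, 9 as reported, numbered 15 without the filter and 2 to 15 with single libraries left out. For a Hox gene at 0 in all 6 libraries, 0.0291 CPM is the upper limit that this depth allows.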

Other observations

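Among the other homeobox rows of the table, those with the highest mean CPM were Prrx1 (990), Barx1 (192), Prrx2 (190) and Six2 (141), all known in facial mesenchyme, as means of 6 libraries. Prrx2 had 2604 to 3768 counts per library and Six2 1697 to 2924. They were picked by level after their values were seen, and neither Prrx2 (log2 fold change -0.04 ± 0.13, adjusted p = 0.901) nor Six2 (-0.01 ± 0.17, adjusted p = 0.974) passed the edgeR test between genotypes.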
